A study of Mus musculus with 12 samples.

Results

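Macrophages of embryonic origin and macrophages of adult, haematopoietic stem cell origin live side by side in the bone marrow of the adult mouse, and their transcriptomes were compared here. The comparison used the 3 libraries of eYFP+ macrophages (labelled BM_embTRMp, eYFPpos) and the 3 libraries of eYFP- macrophages (labelled BM_adTRMp, eYFPneg), 6 of the 12 libraries of the series. The other 6 libraries, 3 of Ly6Chi and 3 of Ly6Clo monocytes (labelled BM_adMono), served only as a reference level for each gene. All libraries are polyA-selected RNA from bone marrow of 8-week-old female C57BL/6J mice. According to the study's methods the animals carried Rank cre/+ and the reporter allele R26.eYFP fl/+, so that the eYFP- cells share both alleles with the eYFP+ cells. Cre is driven from the Rank locus, which adult haematopoietic stem and progenitor cells do not express. Macrophages were sorted as F4/80hi cells of a CD45+ gate, few cells a library, and the number of mice behind a library is not given in the sources used here. P-values consequently measure the spread between libraries, which may be partly technical.

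Bone marrow macrophages recycle the iron of red cells, clear nuclei and dying cells, and form the centre of the islands on which erythroblasts mature. Some descend from embryonic progenitors and persist by their own division, while others are replaced from haematopoietic stem cells by way of monocytes. Monocytes are motile blood cells, and many genes of adhesion and of the actin cortex are switched down as they become fixed tissue macrophages. A gene that is higher in eYFP- macrophages may therefore be a gene that monocytes hold at a still higher level, or a gene that is highest in the eYFP- macrophages themselves, and the 2 kinds were separated.

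Total counts ran from 37518670 to 48618187 in the 6 macrophage libraries and from 26390927 to 38730531 in the monocyte libraries. Both macrophage groups expressed macrophage genes far above monocytes. The 18 bone marrow macrophage markers summed to between 76838 and 83830 TPM (transcripts scaled by length and depth) in eYFP+ libraries and to between 64560 and 66072 TPM in eYFP- libraries, against 1622 to 5387 TPM in monocytes. None of the 18 was called different between the macrophage groups by DESeq2 or edgeR, and none reached an unadjusted DESeq2 p of 0.05. Tnfrsf11a, the gene of Rank, had 272, 372 and 346 normalized counts in eYFP+ and 281, 225 and 187 in eYFP- libraries, which overlap (DESeq2 adjusted p = 0.895). The second Ly6Clo library stood apart from the other monocyte libraries with 16434 genes detected, and the values without it are given where it matters.

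Of 21195 genes tested with DESeq2 in a fit of all 12 libraries, 439 (2.07%) passed an adjusted p of 0.05 between the macrophage groups. Most calls had 1 direction: 406 genes (1.92%) were lower in eYFP+ macrophages and 33 (0.156%) were higher. The lower genes had a median log2 fold change of -2.41, while the median over all genes tested was 0.05, and in 387 of the 406 the 3 eYFP+ libraries lay below the 3 eYFP- libraries without overlap. Over all genes tested, 8.6% showed such a non-overlapping lower position and 6.73% a non-overlapping higher position. The imbalance of the calls depended on the libraries, with 348 lower and 181 higher genes without eYFP- replicate 2. Blocking on the replicate number also made the DESeq2 calls less one-sided, though not those of edgeR, as given in the closing sections. In all 6 DESeq2 fits that left out a macrophage library, 161 of the 406 lower and 5 of the 33 higher genes were called. In a single draw of simulated counts with the same spread and few changed genes, a large part of the DESeq2 calls were false. That part was far above what its adjusted p allows, while edgeR made few calls and held its error rate. Because the false share depends on how many genes truly change, it need not be that of the real data. The DESeq2 counts, and the list counts built on them, may still hold many false calls. edgeR's quasi-likelihood test was stricter and called 64 of 19189 genes (0.334%), 63 lower (0.328%) and 1 higher (0.00521%), and each of the 64 was also a DESeq2 call. At an unadjusted edgeR p below 0.05 there were 1101 lower and 323 higher genes. The list counts that follow stand against 1.92% lower and 0.156% higher among all genes tested with DESeq2.

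The 406 lower genes were a small part of the transcriptome, and their share was highest in monocytes. They took 0.361%, 0.307% and 0.327% of all TPM in the eYFP+ libraries and 1.23%, 1.09% and 1.27% in the eYFP- libraries. In Ly6Chi monocytes they took 4.96 to 5.34%, and in Ly6Clo monocytes 3.22 to 3.41%. The order of the macrophage groups is fixed by the choice of the genes.

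Each lower gene was placed by its monocyte reference level, the higher of the Ly6Chi and Ly6Clo mean normalized counts. In 170 genes (41.9%) monocytes were at least 2-fold above eYFP- macrophages (called monocyte-high), in 97 (23.9%) the levels lay within 2-fold (shared), and in 139 (34.2%) eYFP- macrophages were at least 2-fold above both monocyte groups (eYFP- high). Over all genes tested the same classes held 25.6%, 56.7% and 17.6%. Because the eYFP- libraries enter both the call and the class, these shares are a description and not a test. In the monocyte-high class the eYFP- macrophages retained a median of 11.1% of the monocyte level (interquartile range 4.10 to 23.7%) and eYFP+ macrophages 1.77%. In the shared class the medians were 111% and 26.1%, and in the eYFP- high class 455% and 75.3%. The monocyte-high class alone carried the high monocyte share, with 2.93 to 4.99% of TPM in monocytes and 0.289 to 0.429% in eYFP- macrophages. The shared class took 0.186 to 0.260% in monocytes and 0.284 to 0.340% in eYFP- macrophages, and the eYFP- high class 0.0708 to 0.0899% and 0.379 to 0.639%. In 32 genes of the eYFP- high class both monocyte means were under 10 normalized counts.

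**Figure D1:**
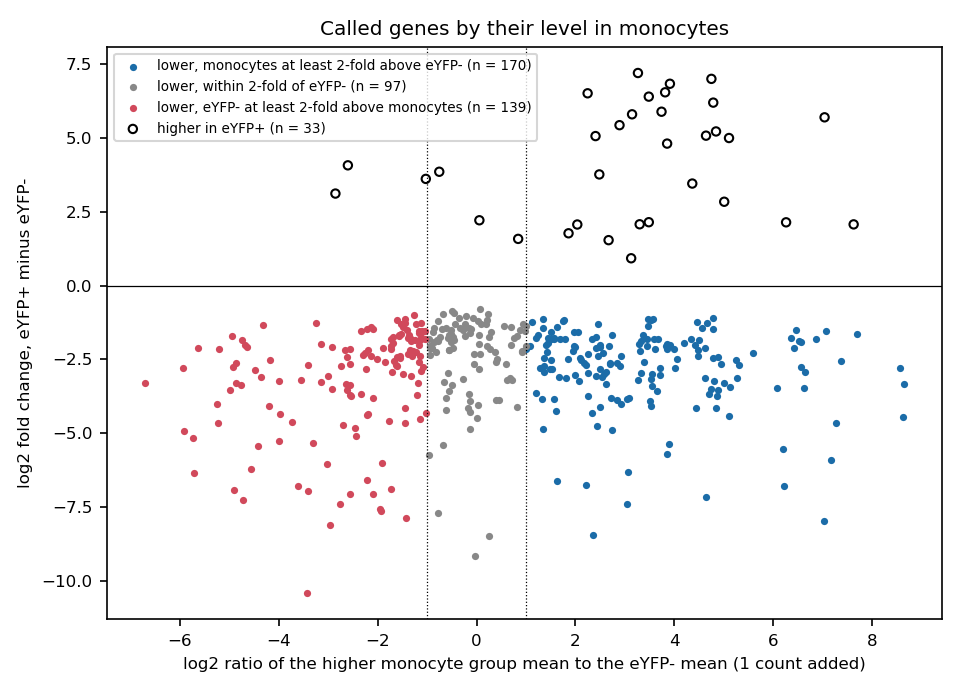
Each point is 1 of the 439 called genes. The horizontal axis is the log2 ratio of the higher monocyte mean to the eYFP- mean and the vertical axis the log2 fold change of eYFP+ minus eYFP- macrophages, with dotted lines at 2-fold. The 406 lower genes spread over all 3 classes, 170 monocyte-high, 97 shared and 139 eYFP- high, and the 33 higher genes are open circles.

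The split between the classes depended on the libraries. Without eYFP- replicate 1, 61.6% of the lower genes were monocyte-high and 19.2% eYFP- high, and without eYFP- replicate 3 these shares were 56.9% and 25.5%. The number of lower genes itself fell to 216 without eYFP- replicate 3 and rose to 766 without the second Ly6Clo library.

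The monocyte-high genes held leukocyte adhesion molecules and cytoskeletal genes. Of 31 tested integrins and other adhesion genes, 9 were lower in eYFP+ macrophages and none higher, 8 of the 9 in the monocyte-high class, and the median log2 fold change of the list was -0.54. Spn encodes CD43, a large sialoglycoprotein of the leukocyte surface. It was nearly absent from eYFP+ macrophages, with 3.09, 42.0 and 3.70 normalized counts against 204, 292 and 228 in eYFP- macrophages, and reached 1951 to 3155 in Ly6Clo monocytes (log2 fold change -3.90 ± 0.71, given with its standard error here and elsewhere, DESeq2 adjusted p = 1.35e-05, edgeR adjusted p = 0.0593). Icam2, a ligand of the integrin LFA-1, was steadier within groups, at 82.3, 83.0 and 105 against 292, 439 and 425 normalized counts (log2 fold change -2.09 ± 0.31, DESeq2 adjusted p = 8.10e-09, edgeR adjusted p = 0.00956). The LFA-1 chain Itgal fell by 1.76 on the log2 scale and the beta chain Itgb7 fell by 2.42. Jaml, Emb and Dpp4 fell as well. Of the 6 fits without a macrophage library, Itgal and Jaml were called in 3 and Emb in 1. The remaining member was Itga2b of the eYFP- high class, described with the progenitor genes.

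The adhesion list summed to between 13193 and 17076 TPM in eYFP+ and between 11946 and 12984 TPM in eYFP- libraries, and monocytes reached 4640 to 5393 TPM. Vcam1, the adhesion molecule that marks these macrophages, made up most of the macrophage sums, with mean levels of 12312 and 9392 TPM. It had 667025 to 1078620 normalized counts in eYFP+ and 537841 to 676378 in eYFP- libraries, which overlap (DESeq2 adjusted p = 0.977).

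Among 34 genes of the leukocyte actin cytoskeleton, 4 (11.8%) were lower and none higher, against 1.92% and 0.156% of all genes tested. The list's median was -0.12. Coro1a encodes coronin 1A, an actin-binding protein of leukocytes. It had 365, 897 and 494 normalized counts in eYFP+ libraries and 2340, 4817 and 3921 in eYFP- libraries, and 105059 to 117581 in Ly6Chi monocytes. Its log2 fold change was -2.66 ± 0.53 (DESeq2 adjusted p = 0.000142, edgeR adjusted p = 0.0677). The others were Lsp1, which binds F-actin, Tmsb10, which binds monomeric actin, and the septin gene Sept1, the last of the eYFP- high class. Tmsb10 was called in 2 of the 6 fits without a macrophage library and Sept1 in 4. Of 17 S100 and annexin genes, 4 were lower, all monocyte-high: the calcium-binding S100a6, S100a10 and S100a11 and the phospholipid-binding Anxa1. S100a10 had 122, 191 and 185 normalized counts in eYFP+ and 353, 749 and 828 in eYFP- libraries, while Ly6Chi monocytes had 10437 to 13730.

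Of 26 chemokine and trafficking receptors, which guide monocytes out of and through the marrow, 2 (7.69%) were lower, Ccr2 and S1pr4, against 1.92% of all genes tested. The median log2 fold change was 0.02, and the summed level was higher in eYFP+ libraries, at 1501 to 2275 TPM against 1382 to 1481 TPM, without overlap. S1pr4, a receptor for sphingosine 1-phosphate, had 11.3, 102 and 54.8 normalized counts against 324, 663 and 423, with a DESeq2 adjusted p of 0.0319 and an edgeR adjusted p of 0.382, and it stayed below 0.05 in only 1 of the 6 DESeq2 fits that left out a macrophage library. Plac8, a small cysteine-rich protein abundant in monocytes, was lower without overlap, at 167, 416 and 107 against 1330, 2339 and 2784 normalized counts (log2 fold change -3.23 ± 0.49, DESeq2 adjusted p = 4.16e-08, edgeR adjusted p = 0.0236). In all, 5 of 17 tested monocyte markers were lower. Their summed level did not follow, at 9025, 6407 and 5215 TPM in eYFP+ and 6968, 6552 and 5358 TPM in eYFP- libraries, against 34072 to 87084 TPM in monocytes. The monocyte surface marker Ly6c2 and the integrin chain Itgam received no adjusted p in DESeq2, and Ly6c2 had 4.12, 21.0 and 36.3 normalized counts in eYFP+ libraries and 29.2, 327 and 46.0 in eYFP- libraries, which overlap (edgeR adjusted p = 0.361).

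Of the MHC class II list 12.5% and of the inflammatory cytokine list 3.03% of tested genes were called, against 2.07% of all genes tested. edgeR called none of either list. Of 16 genes of MHC class II presentation 2 were lower, H2-Oa and H2-Ob, the chains of the H2-O molecule that restrains peptide loading. H2-Oa had 17.5, 24.8 and 45.9 normalized counts against 84.9, 213 and 281 (log2 fold change -2.71 ± 0.55, DESeq2 adjusted p = 0.000192, edgeR adjusted p = 0.0677), and its reference was Ly6Clo monocytes with 544 to 1250. Alox5ap, the partner of 5-lipoxygenase in leukotriene synthesis, was the only gene called of 33 inflammatory cytokine and inflammasome genes. Its normalized counts were 587, 236 and 152 against 1177, 1364 and 1702, and monocytes held 18873 to 44248 (log2 fold change -2.12 ± 0.49, DESeq2 adjusted p = 0.00205, edgeR adjusted p = 0.0866).

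In the shared class eYFP- macrophages stood within 2-fold of the monocyte level. Of the gene lists, mitosis (9 genes) and S phase (5 genes) had the most members in it, and these are described with the cell cycle. Mpo encodes myeloperoxidase, the heme enzyme of primary granules made by myeloid progenitors. It had 396, 1809 and 226 normalized counts in eYFP+ libraries, 7443, 20146 and 27039 in eYFP- libraries, 15214 to 24361 in Ly6Chi and 131 to 480 in Ly6Clo monocytes. The macrophage groups did not overlap, although both varied several-fold within themselves (log2 fold change -4.49 ± 0.73, DESeq2 adjusted p = 4.74e-07, edgeR adjusted p = 0.0528). Prtn3, the granule protease proteinase 3, was monocyte-high and had 64.8, 160 and 40.7 against 704, 1316 and 1776 normalized counts (log2 fold change -3.84 ± 0.51, DESeq2 adjusted p = 5.77e-11, edgeR adjusted p = 0.0104). Hdc, which makes histamine from histidine, had 59.7, 16.2 and 0 against 468, 800 and 895 normalized counts.

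Gypc, or glycophorin C, which anchors the membrane skeleton in red cells, had 357, 289 and 281 normalized counts in eYFP+ and 3079, 1633 and 2514 in eYFP- libraries (log2 fold change -2.96 ± 0.40, DESeq2 adjusted p = 2.53e-10, edgeR adjusted p = 0.00956). The tetraspanin Tspan32 fell by 2.24 on the log2 scale. Of 43 interferon-stimulated genes 2 (4.65%) were lower, against 1.92% of all genes tested. They were Ifitm1, a membrane protein that limits virus entry, and Isg20, an RNA exonuclease, and both edgeR adjusted p were 0.0315. Ifitm1 had 36, 61.0 and 5.92 against 414, 630 and 644 normalized counts. The median of the list was 0.15, and 29 members were above 0.

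The genes of DNA replication and mitosis were the most widely lower of the function lists and lay mainly in the shared and eYFP- high classes. Of 44 S phase genes 17 (38.6%) were lower and none higher, 43 of 44 had a negative log2 fold change, and the median was -1.22. Of 40 mitosis and G2/M genes 17 (42.5%) were lower and none higher, all 40 were negative, and the median was -1.54. Among the 34 lower genes, 18 were eYFP- high, 14 shared and 2 monocyte-high.

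Replication is licensed by the MCM helicase, and Mcm2, Mcm4, Mcm5, Mcm6 and Mcm7 of its subunits were lower, although Mcm2 was called in 1 and Mcm4 in 4 of the 6 fits without a macrophage library. Mcm6 had 2448, 2963 and 3096 normalized counts in eYFP+ libraries, 10675, 6426 and 7776 in eYFP- libraries, 2114 to 2625 in Ly6Chi and 2716 to 5405 in Ly6Clo monocytes, so that eYFP+ macrophages were near the monocyte level (log2 fold change -1.55 ± 0.33, DESeq2 adjusted p = 0.000413, edgeR adjusted p = 0.0392). Ccne1, or cyclin E1, which drives entry into S phase, had 233, 321 and 478 against 2518, 853 and 1343 normalized counts, and all 3 eYFP- libraries lay above every monocyte library, but it was not called without eYFP- replicate 1. E2f2, a transcription factor of this programme, was the 1 monocyte-high member, at 6311 to 7112 in Ly6Chi monocytes.

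Among mitotic genes, Cdca3, which promotes mitotic entry, had 342, 380 and 307 normalized counts in eYFP+ and 1661, 1064 and 1552 in eYFP- libraries (log2 fold change -2.06 ± 0.30, DESeq2 adjusted p = 1.40e-08, edgeR adjusted p = 0.0143). The cyclin gene Ccnb2 had 591, 347 and 328 against 3817, 1436 and 2406 (log2 fold change -2.60 ± 0.50, DESeq2 adjusted p = 6.95e-05, edgeR adjusted p = 0.0488). Aurkb, the kinase of the chromosomal passenger complex, had 714, 339 and 494 against 1736, 1192 and 1633. In each of the 3 genes eYFP- replicate 1 was the highest macrophage library and the groups did not overlap.

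Summed over the lists the same order held. S phase genes came to 836, 630 and 663 TPM in eYFP+ and 2037, 1379 and 1537 TPM in eYFP- libraries, with monocytes at 610 to 736 TPM. Mitosis genes came to 402, 253 and 226 TPM against 1125, 784 and 1028 TPM, with monocytes at 362 to 583 TPM. For S phase the eYFP+ level lay in or just above the monocyte range, and for mitosis it reached below that range in 2 libraries. The counts of called genes rested on single libraries. The S phase count was 6 without eYFP- replicate 1, 10 without eYFP- replicate 3 and 8 without eYFP+ replicate 2 or 3, and the mitosis count was 8, 5, 9 and 5 in the same order and 28 without eYFP+ replicate 1, and edgeR called 3 of each list. Without the second Ly6Clo library the counts were 27 and 31.

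These 2 lists are shown with their promoters because their members moved together and because the cell cycle is known for promoter elements that separate its phases. E2F factors bind at S phase genes, while the MuvB complex with B-MYB or FOXM1 acts at mitotic genes through the CHR element, often beside CCAAT boxes bound by NF-Y. Ube2c, one of the genes shown, was not called without eYFP- or eYFP+ replicate 3. The letters searched on both strands were TTCCCGC or TTGGCGC for E2F, TTTGAA or TTCGAA for the CHR and CCAAT for the box, in RefSeq windows of the mouse build GRCm38.p6 from 250 bases before to 50 bases after a transcript start. Letters of CCAAT and of the E2F motif GCGCCAA can overlap. The E2F letters were in 6.81% of all 32851 windows, in 48.9% of the 45 windows of S phase genes and in 8.33% of the 36 windows of mitosis genes. The CHR letters were in 19.2% of all windows, in 20% of S phase and in 77.8% of mitosis windows, and CCAAT was in 37.4%, 60.0% and 72.2%. For the called members alone the E2F letters were in 47.1% of 17 S phase windows and the CHR letters in 85.7% of 14 mitosis windows. Against this, 9.15% and 15.7% of the 153 windows of monocyte-high genes held the E2F and CHR letters.

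The 250 bases before the start of the 2 called S phase genes and the 2 called mitosis genes with the lowest adjusted p whose window holds the list's motif are given on the strand of the gene, with the E2F, CHR and CCAAT letters in capitals. Mcm5 lies at chr8:75109259-75109508 on the plus strand, Mcm6 at chr1:128359706-128359955 on the minus strand, Ccnb2 at chr9:70421555-70421804 on the minus strand and Ube2c, which encodes the ubiquitin-conjugating enzyme of the anaphase-promoting complex, at chr2:164769679-164769928 on the plus strand.
Mcm5: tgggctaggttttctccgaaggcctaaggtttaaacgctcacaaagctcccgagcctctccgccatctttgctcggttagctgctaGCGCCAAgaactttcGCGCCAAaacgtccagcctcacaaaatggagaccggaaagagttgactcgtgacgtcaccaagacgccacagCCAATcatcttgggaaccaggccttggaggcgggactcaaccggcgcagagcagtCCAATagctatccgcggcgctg
Mcm6: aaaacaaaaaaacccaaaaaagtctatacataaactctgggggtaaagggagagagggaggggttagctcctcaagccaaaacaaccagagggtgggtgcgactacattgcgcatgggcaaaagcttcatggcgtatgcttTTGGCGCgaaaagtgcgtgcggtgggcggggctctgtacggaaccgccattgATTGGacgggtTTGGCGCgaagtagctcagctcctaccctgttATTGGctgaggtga
Ccnb2: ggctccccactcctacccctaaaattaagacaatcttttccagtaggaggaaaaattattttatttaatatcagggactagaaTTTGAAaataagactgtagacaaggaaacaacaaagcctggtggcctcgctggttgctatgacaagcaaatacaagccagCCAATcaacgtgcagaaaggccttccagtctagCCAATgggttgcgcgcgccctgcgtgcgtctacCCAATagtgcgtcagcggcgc
Ube2c: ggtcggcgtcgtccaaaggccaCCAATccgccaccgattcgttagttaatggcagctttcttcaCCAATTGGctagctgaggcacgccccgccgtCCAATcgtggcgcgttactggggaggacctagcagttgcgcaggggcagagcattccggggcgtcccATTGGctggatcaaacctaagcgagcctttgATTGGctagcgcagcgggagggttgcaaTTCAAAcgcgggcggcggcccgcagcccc

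The Mcm5 window holds E2F letters starting 164 and 149 bases before the start, and the nearest in the Mcm6 window lie 46 bases before it. The Ccnb2 window has the CHR letters 167 bases before the start with CCAAT at 87, 54 and 21, and in Ube2c the CHR letters lie 29 bases before the start. A match is a description of these letters and not of a bound factor.

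The eYFP- high class also held genes of haematopoietic progenitors. Of 19 stem and progenitor genes 8 were lower and none higher, the list's median was -3.26, and 6 of the 8 were eYFP- high. Cd34, a sialomucin of progenitors and endothelium, had 9.26, 152 and 54.0 normalized counts in eYFP+ libraries, 1175, 1970 and 1983 in eYFP- libraries and 140 to 620 in monocytes (log2 fold change -4.58 ± 0.67, DESeq2 adjusted p = 8.66e-09, edgeR adjusted p = 0.0315). Adgrg1, the adhesion receptor GPR56, had 225, 278 and 217 against 1707, 3116 and 3319 normalized counts (log2 fold change -3.50 ± 0.59, DESeq2 adjusted p = 1.38e-06, edgeR adjusted p = 0.0404). In both genes all 3 eYFP- libraries were above every eYFP+ and every monocyte library.

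Mycn, a MYC family transcription factor, had 0, 21.9 and 11.8 against 171, 259 and 277 normalized counts, and Flt3, the receptor of FLT3 ligand, 1.03, 65.8 and 24.4 against 680, 917 and 1077. Flt3 was monocyte-high, since Ly6Clo monocytes reached 3253. Kit, the receptor of stem cell factor, had 71.0, 171 and 221 against 183, 1738 and 1079 normalized counts, which overlap in eYFP- replicate 1 (DESeq2 adjusted p = 0.00841, edgeR adjusted p = 0.202). It was not called without eYFP- replicate 2, eYFP- replicate 3 or eYFP+ replicate 1. Angpt1, the ligand of Tie2, had 69.0, 83.9 and 12.6 against 264, 890 and 493, and was not called without eYFP- replicate 2. Itga2b, the integrin chain CD41 of megakaryocytes and progenitors, had 34, 59.1 and 60 against 808, 896 and 1393 (log2 fold change -4.34 ± 1.0, DESeq2 adjusted p = 0.00177, edgeR adjusted p = 0.170). Without eYFP- replicate 2 or 3, 5 of the 19 were called.

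Further eYFP- high genes belong to none of these lists. Egfl7, a secreted protein of endothelium, was close between the eYFP- libraries and varied more between the eYFP+ libraries, at 35, 16.2 and 13.3 against 264, 279 and 289 normalized counts with 15.8 to 73.1 in monocytes (log2 fold change -3.70 ± 0.52, DESeq2 adjusted p = 1.52e-09, edgeR adjusted p = 0.0243). Phgdh, the first enzyme of serine synthesis, had 12.4, 52.4 and 47.4 against 281, 453 and 571 (log2 fold change -3.53 ± 0.54, DESeq2 adjusted p = 6.82e-08, edgeR adjusted p = 0.0345). Kcnj8, a subunit of ATP-sensitive potassium channels, had 4.12, 0 and 5.18 against 147, 68.4 and 127, and at most 2.43 in monocytes. Ctla2a fell by 2.67 on the log2 scale and Fam117a fell by 2.26.

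**Figure D2:**
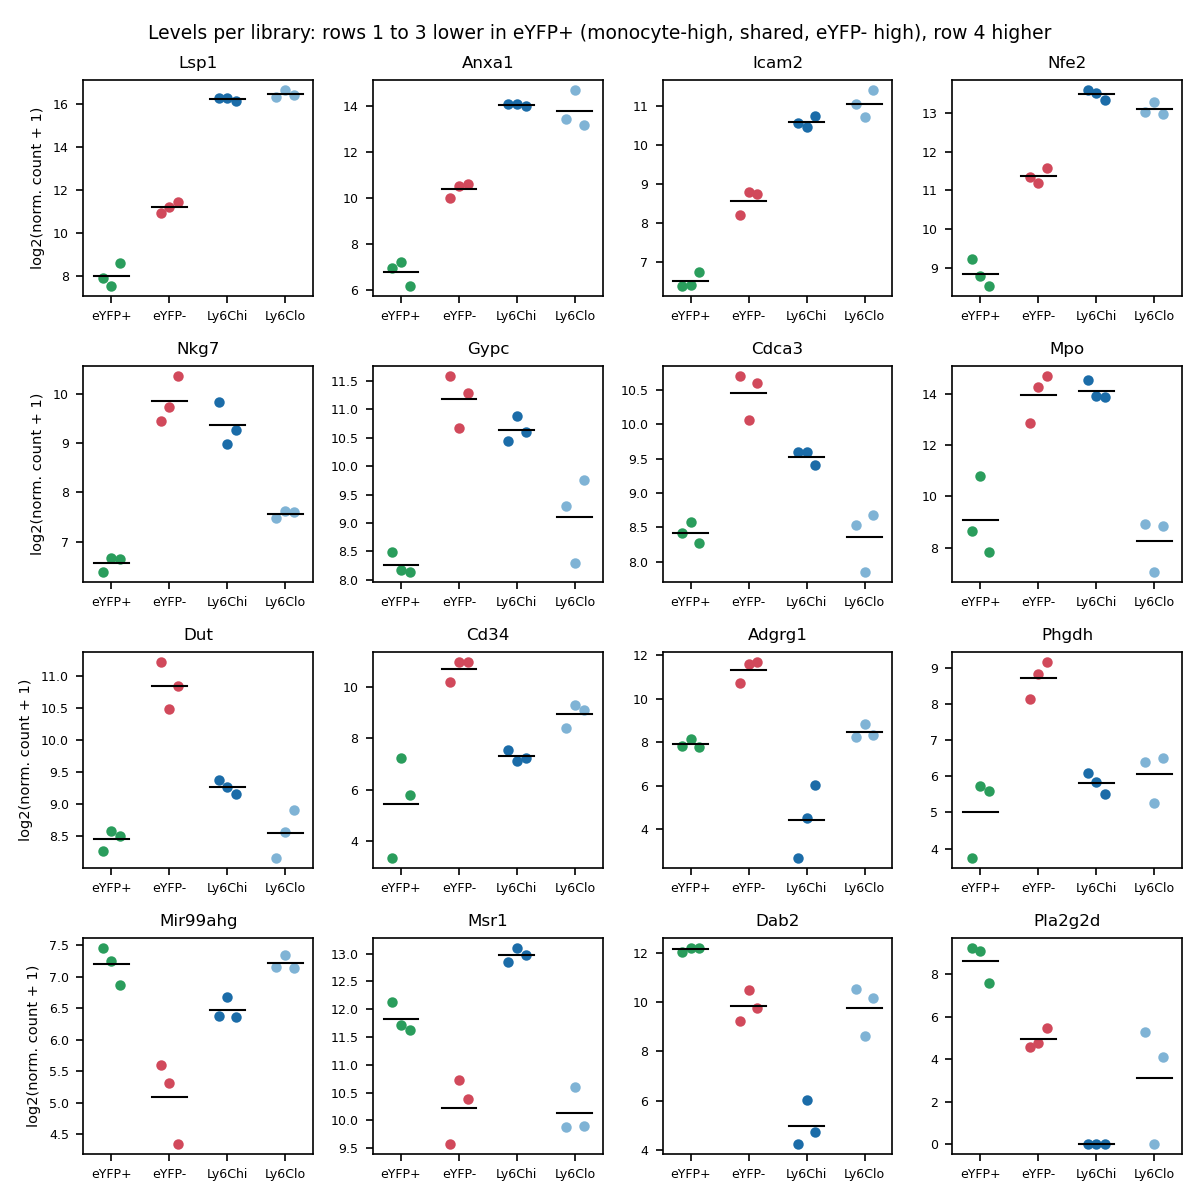
Each panel shows 1 gene in the 12 libraries as log2(normalized count + 1), with points for libraries and a line at the mean of the 3 plotted values. Rows from the top hold monocyte-high, shared and eYFP- high genes, in which the eYFP+ libraries lie below the eYFP- libraries, and in the last row are genes higher in eYFP+ macrophages.

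Erythroid genes also belonged to the eYFP- high class. These macrophages are known to hold on to erythroblasts. Of 24 erythroid genes 6 were lower and none higher, all 24 had a negative log2 fold change, and the median was -1.54. Klf1, the transcription factor of erythroid maturation, had 997, 519 and 884 normalized counts in eYFP+ libraries, 7979, 2437 and 4426 in eYFP- libraries and 67.1 to 339 in monocytes (log2 fold change -2.63 ± 0.61, DESeq2 adjusted p = 0.00184, edgeR adjusted p = 0.105). Slc4a1, the band 3 anion exchanger of the red cell membrane, had 3129, 3396 and 4448 against 7669, 14087 and 14515. The others called were Rhd, Car1, Car2 and Tfr2. Of the 6 fits without a macrophage library, Klf1 was called in 5 (not without eYFP- replicate 1), Car1 in 3, Slc4a1, Rhd and Car2 in 2 each and Tfr2 in 1.

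The erythroid genes summed to 15351, 9305 and 11088 TPM in eYFP+ libraries and to 37745, 23594 and 33570 TPM in eYFP- libraries, without overlap, against 414 to 1471 TPM in monocytes. Both macrophage groups thus held far more erythroid RNA than monocytes. In these bulk libraries, fewer erythroid cells and less erythroid RNA per cell cannot be told apart, and this holds for each marker list. Leaving out eYFP- replicate 1 or eYFP+ replicate 2 left 1 called gene, leaving out eYFP- replicate 3 or eYFP+ replicate 3 left 2, without the second Ly6Clo library there were 18, and edgeR called none of the list. Dividing erythroblasts also express S phase and mitosis genes, and the libraries stand in the same order in the erythroid, S phase and mitosis sums within the eYFP- group, with replicate 1 highest and replicate 2 lowest. In the eYFP+ group replicate 1 was highest in all 3 sums, while replicate 2 was lowest in the erythroid and S phase sums and replicate 3 in the mitosis sum. The part of erythroid cells in the cell cycle result was not tested.

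Markers of other blood cells differed from list to list. Of 20 neutrophil and precursor genes 7 were lower, the median was -3.68, and the list summed to 167 to 252 TPM in eYFP+ libraries and to 305, 2946 and 990 TPM in eYFP- libraries. The high sum of eYFP- replicate 2 came with late granule genes. Ngp had 258, 6609 and 160 normalized counts in eYFP- libraries against 167, 172 and 189, and Lcn2 had 16.4, 1184 and 57.7 against 22.6, 43.9 and 5.18, both overlapping, and neither was called without that library. Lcn2 was also not called without eYFP+ replicate 1 or 3. Without eYFP- replicate 2, 3 of the 20 were called. Mpo and Prtn3, described with the granule enzymes, did not overlap and were called without it.

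Of 15 eosinophil, basophil and mast cell genes 3 were lower. Without eYFP- replicate 2 or 3 none of them was called, and without eYFP- replicate 1 a single one was. Mcpt8, a basophil protease, had 0, 2.86 and 2.22 normalized counts against 1530, 2237 and 3258, with 646 in 1 Ly6Chi library and 6.36 or less in the other monocyte libraries (DESeq2 adjusted p = 9.07e-06, edgeR adjusted p = 0.0677), and in 3 of the 6 fits without a macrophage library it received no adjusted p. The list summed to 1783, 1566 and 1527 TPM against 1530, 1846 and 3097 TPM, which overlap. Of 23 T and NK cell genes 4 were lower, the granule protein Nkg7, the kinase Lck, the receptor Klrd1 and the chemokine Ccl5, and the sums overlapped, at 274 to 348 TPM against 274 to 468 TPM. Of 17 dendritic cell genes 4 were lower, Flt3, Xcr1, Cd209a and Klrd1, but 8 of the 17 were positive, the median was -0.02 and the sums overlapped, at 485 to 607 TPM against 463 to 600 TPM. One gene each was lower among 17 B and plasma cell markers (Ighm, called in 1 of the 6 fits without a macrophage library) and 17 megakaryocyte and platelet markers (Itga2b). The sums of both lists overlapped, at 1001 to 1411 TPM against 1020 to 1155 TPM and at 281 to 487 TPM against 416 to 483 TPM, and none among 18 stromal and endothelial genes, of which 7 had an unadjusted DESeq2 p below 0.05. Of 11 osteoclast genes, Car2, which is also in the erythroid list, was lower and Ctsk higher, and the list summed to 1015, 660 and 723 TPM in eYFP+ and 2101, 1206 and 1609 TPM in eYFP- libraries, without overlap. Most of that gap was Car2, with means of 287 and 1074 TPM, and 5 of the 11 genes were negative and 5 positive. The stem and progenitor list summed to 640 to 756 TPM against 847 to 917 TPM, without overlap. Of all marker genes tested or listed, Mcpt4, Tpsb2, Spink2 and Dcstamp were at 0 in all 3 eYFP- libraries, and Tpsb2, Gp1bb, Mzb1, Ptprcap, Sp7 and Dcstamp in all 3 eYFP+ libraries. The part of these cells in the lower genes was not tested.

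**Figure D3:**
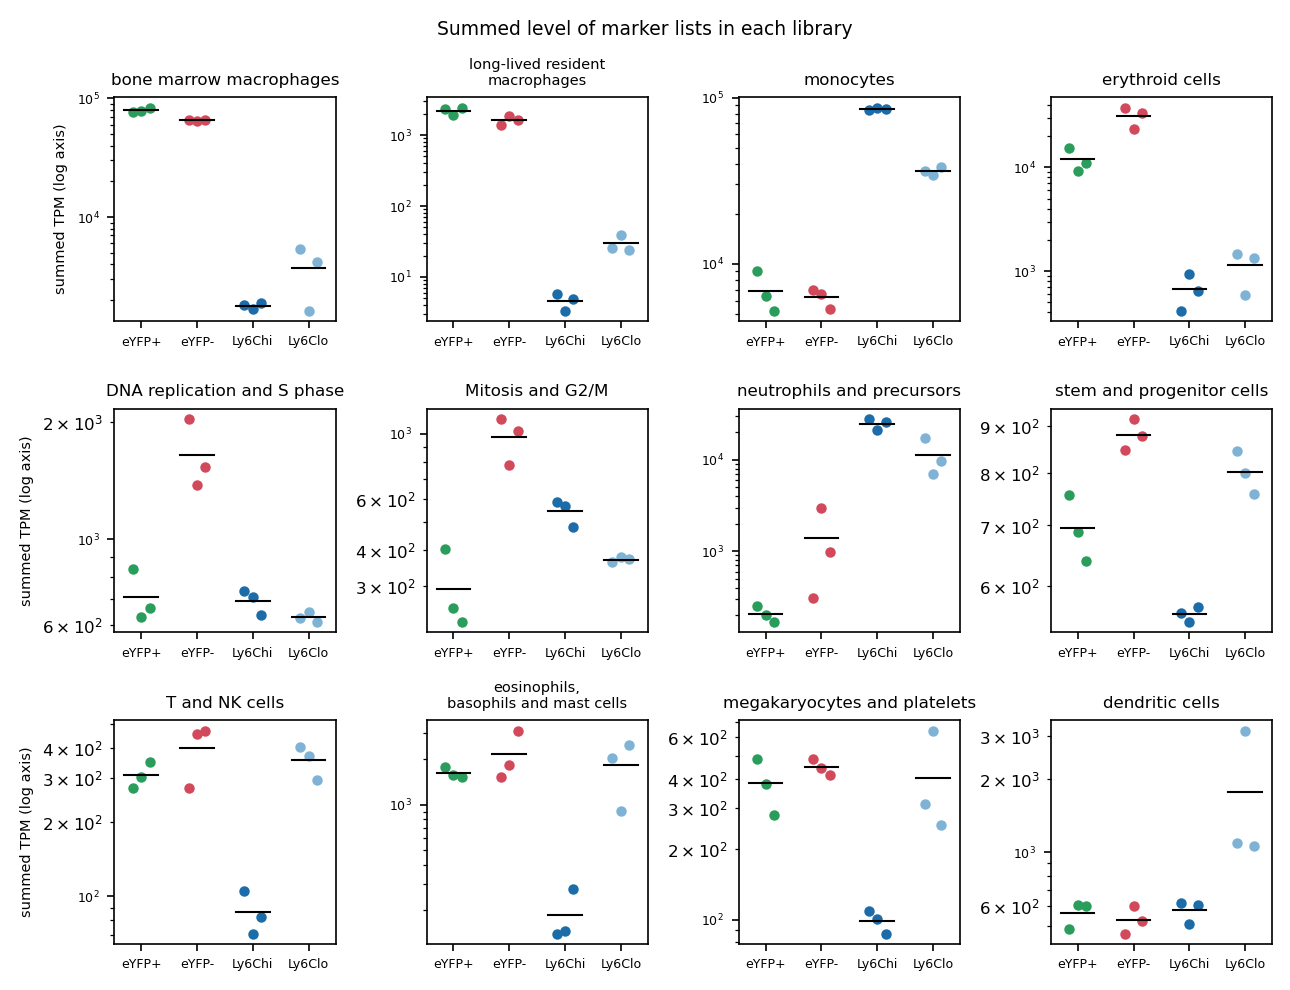
Summed TPM of 12 gene lists in each library on a log axis, with points for libraries and a line at the mean of 3. The eYFP- libraries lie above the eYFP+ libraries for erythroid, S phase, mitosis, neutrophil and progenitor lists, below them for bone marrow macrophage and long-lived resident macrophage lists, and overlap with them for the other 5.

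The lists for the known work of bone marrow macrophages, digestion, uptake and iron recycling, differed in their share of called genes. It was 1.61% for lysosomal genes, 0% for Fc receptor genes and 7.41% for iron and heme genes, against 2.07% of all genes tested. Of 62 lysosomal hydrolases, membrane proteins and proton pump genes none was lower and 1 was higher, 51 had a positive log2 fold change, and the median was 0.25. Of 36 Fc receptor and immune receptor signalling genes none was called by DESeq2 or edgeR and 2 had an unadjusted DESeq2 p below 0.05. Of them 31 were positive, and the median was 0.32. The summed levels of both lists were higher in eYFP+ libraries without overlap, at 49663 to 54307 TPM against 42861 to 49299 TPM for the lysosomal genes and 22453 to 27143 TPM against 19253 to 19931 TPM for the Fc receptor genes. Of 27 iron and heme recycling genes Hp and Lcn2 were lower, both monocyte-high, while Slc40a1, the iron exporter ferroportin, had 838827, 426026 and 422848 normalized counts against 427977, 332129 and 332243 (DESeq2 adjusted p = 0.607), and the groups overlapped. The iron and heme list summed to 49731 to 60998 TPM in eYFP+ and 39778 to 50328 TPM in eYFP- libraries, which overlap. The 8 long-lived resident macrophage genes had a median of 0.42 with none called by either tool and 1 with an unadjusted DESeq2 p below 0.05. Of them Cd163, the receptor for haemoglobin bound to haptoglobin, had 77449, 78914 and 118439 against 28078, 76904 and 62165 normalized counts (DESeq2 adjusted p = 0.728), so that the groups did not overlap and the difference did not pass the test.

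Several other programmes had no called gene or a single one, where 2.07% of all genes tested were called. None of 21 MHC class I genes, 24 cholesterol synthesis genes, 25 immediate early and heat shock genes, 52 Rab GTPases, 91 ribosomal protein genes and 12 mitochondrially encoded genes passed, by DESeq2 or by edgeR. The numbers with an unadjusted DESeq2 p below 0.05 were 0, 2, 1, 5, 3 and 0 in the same order. The 12 mitochondrial genes were all positive with a median of 0.37, and 70 of the 91 ribosomal genes were negative with a median of -0.16. Among 28 Toll-like receptor and LPS sensing genes Lbp was lower, among 22 chemokine ligands Ccl5, among 23 glycolysis genes the glucose transporter Slc2a3 and among 87 respiratory chain genes Cox6b2, which was called in 2 of the 6 fits without a macrophage library. Lbp was not called without eYFP- replicate 2, and Ccl5 not without eYFP- replicate 3 or eYFP+ replicate 2. Of 26 genes for uptake of apoptotic cells 2 (7.69%) were lower, Mfge8, a bridge to phosphatidylserine, and Cst7, a cathepsin inhibitor, the latter not without eYFP- replicate 3. Without that library Ccr2, S100a6, Alox5ap and Lck were not called either.

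Of 58 growth factor and matrix genes of the niche 4 (6.90%) were lower and none higher, against 1.92% and 0.156% of all genes tested. The 4 were Lrg1, Mfge8, Angpt1 and Vegfc, the growth factor of lymphatic vessels, and edgeR called none of the list. Vegfc was at 0 in all 3 eYFP+ libraries and at 11, 37.9 and 35.1 normalized counts in eYFP- libraries. Of 63 transcription factors 5 (7.94%) were lower, Nfe2, Id3, Myb, Mycn and Erg, and edgeR called Nfe2 alone. Nfe2 and Mycn were called in all 6 fits that left out a macrophage library, Erg in 5 (not without eYFP- replicate 3), Id3 in 2 and Myb in 1. Across all 45 lists, 108 of the 406 lower genes and 5 of the 33 higher genes were members, from 1785 distinct listed genes tested.

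**Figure D4:**
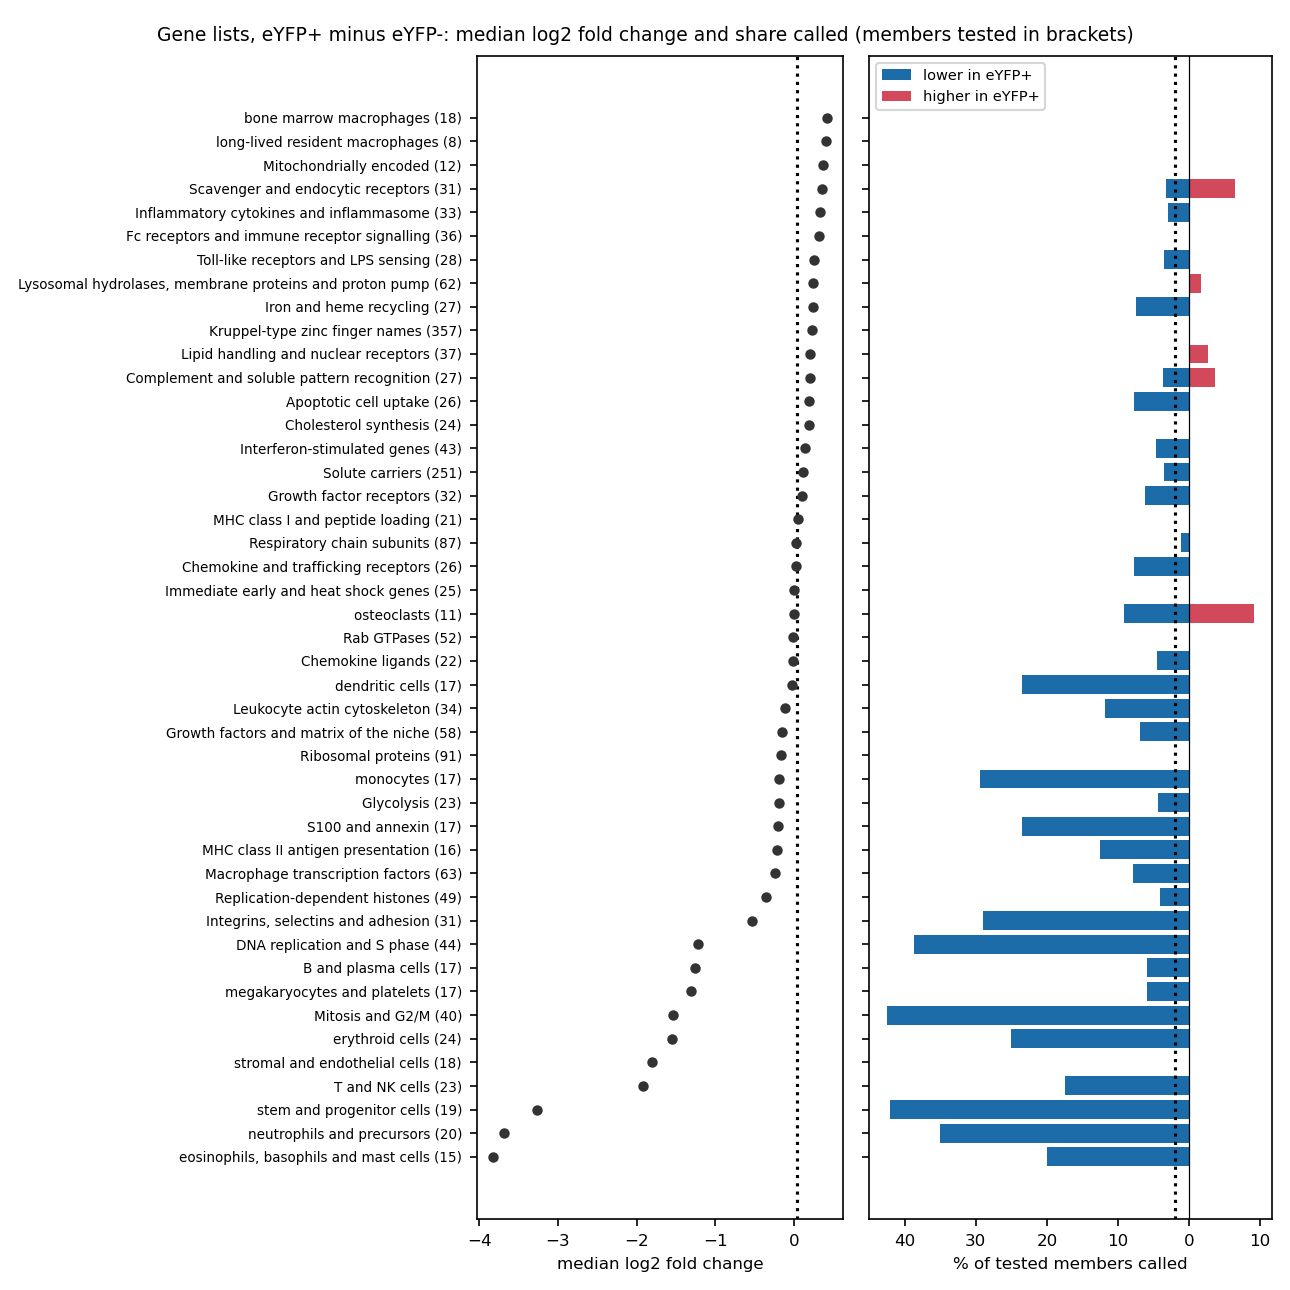
The left panel gives the median log2 fold change of eYFP+ minus eYFP- macrophages for each of 45 gene lists, with the number of tested members in brackets and a dotted line at 0.05, the median of all genes tested. The right panel gives the percent of tested members called lower (to the left) or higher (to the right), with a dotted line at 1.92%, the share of all genes called lower. Mitosis, stem and progenitor and S phase lists reach the largest shares.

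Genes higher in eYFP+ macrophages were few and mostly weakly expressed. Of the 33, 19 had a mean under 50 normalized counts over the 6 libraries, 12 were at 0 in all 3 eYFP- libraries, and 10 carry a predicted name or none. By the monocyte reference, 3 (9.09%) were macrophage genes (eYFP- at least 2-fold above monocytes) and 6 (18.2%) were highest in eYFP+ macrophages. Another 12 (36.4%) were shared with monocytes and 12 (36.4%) were higher in monocytes. Over all genes tested the same classes held 17.6%, 4.04%, 53.7% and 24.6%. Because the macrophage libraries enter both the call and the class, these shares are a description and not a test.

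Endocytic receptors and adaptors were among the more abundant higher genes. Of 31 scavenger and endocytic receptors 2 were higher, Msr1 and Dab2, 1 was lower, Cd209a, and 22 were positive with a median of 0.35. In either direction 9.68% were called, against 2.07% of all genes tested, and edgeR called none of the list. The list summed to between 6942 and 8195 TPM in eYFP+ and between 5201 and 6289 TPM in eYFP- libraries, without overlap. Msr1, the scavenger receptor A of modified lipoproteins, had 4468, 3378 and 3173 normalized counts in eYFP+ and 761, 1690 and 1344 in eYFP- libraries, 7347 to 8766 in Ly6Chi and 945 to 1545 in Ly6Clo monocytes (log2 fold change 1.54 ± 0.36, DESeq2 adjusted p = 0.00209, edgeR adjusted p = 0.0677). Dab2, a clathrin adaptor, had 4172, 4590 and 4626 against 602, 1420 and 869 and at most 1480 in monocytes, and was not called without eYFP- replicate 1 or 3. Cd209a was at 0, 21.0 and 9.62 against 116, 101 and 92.1.

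Mir99ahg, Msr1 and Pla2g2d were called in all 6 DESeq2 fits that left out a macrophage library. Pla2g2d, a secreted phospholipase, had 595, 550 and 192 against 22.8, 26 and 43.5, and none was counted in Ly6Chi monocytes. Sipa1l2, which acts on Rap GTPases, was called in 4 of the 6 fits, the lectin Mgl2 in 3 and the ribonuclease gene Zc3h12d in 2.

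The cathepsin gene Ctsk, the collagen-degrading protease of osteoclasts, had 65.9, 32.4 and 82.2 against 11, 20.1 and 11.7 normalized counts, but 2291 to 4330 in Ly6Clo monocytes, and was called in 3 of the 6 fits. Tspan10, a tetraspanin, had 89.6, 133 and 152 against 12.8, 10.4 and 7.53, and Myo1e, a class I myosin, 1673, 786 and 829 against 386, 411 and 302. Neither was called in any of the 6 fits that left out a library, although their groups did not overlap. The number of higher genes was 15 without eYFP- replicate 1, 181 without eYFP- replicate 2, 12 without eYFP- replicate 3, 17 without eYFP+ replicate 2, 16 without eYFP+ replicate 3 and 107 without the second Ly6Clo library.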

How the data were processed

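RNA of sorted bone marrow cells was reverse transcribed into amplified full-length cDNA, tagmented and sequenced, and per the submitters' processing notes reads were converted with bcl2fastq 2.20.0.422. The authors trimmed and error-corrected the reads, removed ribosomal reads, aligned to GRCm39 with segemehl and deposited featureCounts counts of unambiguous pairs per Ensembl gene. TPM values were calculated by the authors and used as deposited for summed list levels. A deposited table of variance-stabilised values was not used. Use of strand is not given in the sources used here, so overlapping and antisense genes cannot be told apart, and near-identical copies may be uncertain.

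Symbols were taken from a GENCODE table for 91.4% of 56953 identifiers, and promoters from RefSeq (GRCm38.p6). Because the counts use another build, no gene coordinates are given beyond those promoters. DESeq2 1.42.0 (Wald test, 1 fit of 12 libraries in 4 groups, median-of-ratios scaling, independent filtering, Benjamini-Hochberg adjusted p below 0.05) was the main test. A normalized count is a count divided by its library's size factor. edgeR 4.0.16 (quasi-likelihood), limma 3.58.1 on log2(TPM + 1) and log2(TPM + 0.1), and leaving out libraries were alternatives, run in R 4.3.3, with summaries in Python 3.11.15 (pandas 2.3.3, matplotlib 3.10.9). Scripts were tested on a single draw of simulated data with the libraries' own spread and few changed genes. There the signs of changed genes that were called were recovered, edgeR held its error rate and recovered fewer genes, and DESeq2 exceeded its error rate. Classes used monocyte means with 1 added to each level. Named genes were those with the lowest adjusted p and a mean of at least 50 normalized counts, without overlap between groups, up to 8 per class and 12 among the higher, with up to 4 called genes per list, up to 2 abundant members of lists with no call, and the sorting markers. Other genes named as list members were chosen after their values were seen. The comparison and lists were chosen with earlier results of these data known. Some results are not reported here.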

Additional observations from a re-analysis of the deposited data

How the results depend on the processing

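Against 439 calls (406 lower, 33 higher, of which 108 and 5 were listed genes), edgeR gave 64, 63 and 1 (20 and 0 listed) and limma on log2(TPM + 0.1) 175, 170 and 5 (54 and 2), while limma on log2(TPM + 1) gave 14 higher genes and DESeq2 without independent filtering 20. The 6 macrophage libraries alone gave 676, 631 lower and 166 listed lower genes, and a minimum of 10 counts in 3 libraries 8 listed higher genes. Leaving out 1 macrophage library gave 228 to 529 calls, 216 to 424 lower, 12 to 181 higher, 61 to 120 listed lower and 3 to 36 listed higher, and leaving out the second Ly6Clo library 873, 766, 107, 184 and 17. The class shares (monocyte-high, shared, eYFP- high; 41.9%, 23.9%, 34.2%) became 60.3%, 14.3% and 25.4% over edgeR calls, 32%, 49.3% and 18.7% at 4-fold, 51.5% and 48.5% monocyte-high and eYFP- high with no fold, and 39.9% eYFP- high against the mean of both monocyte groups. Without 1 macrophage library they ran from 38.4% to 61.6%, 17.6% to 25% and 19.2% to 37.4%, and without the second Ly6Clo library they were 33.8%, 30.03% and 36.2%. The order of the classes therefore changed: eYFP- high was the largest class without the second Ly6Clo library and against the mean of both monocyte groups, and shared at 4-fold. No log2 fold change of a named gene called in DESeq2 turned its direction, while those of 9 named genes without a call crossed 0 when a library was left out, and the cause of these changes was not tested. TMM scaling moved the median of all genes by -0.02 and turned the sign of 1 list median, that of immediate early and heat shock genes.

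Whether the replicate numbers pair the libraries is not given in the sources used here, and the correlations did not settle it. Deviations of same-numbered libraries correlated at 0.342, 0.192 and 0.0665 over 14179 genes, and eYFP+ replicate 3 correlated best with eYFP- replicate 2 (0.269). The remaining unlike-numbered pairs ran from -0.310 to 0.0448. Blocking on the replicate number in DESeq2 gave 1142 calls, 684 lower and 458 higher (12 listed higher), with the count minimum 11 listed higher genes, and edgeR 24, all lower (24 and 0, with 9 and 0 listed). Of the called genes, 19 of the 33 higher and 89 of the 406 lower had a mean under 50 normalized counts. The effect of depth on these weakly expressed genes was not tested.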

Other observations

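Enzymes that make serine and load one-carbon units onto folate formed a further group, assembled after their values were seen. Of 12 genes 5 were lower in eYFP+ macrophages and none higher, all 12 had a negative log2 fold change, and the list's median was -1.16. Psat1, the second enzyme of serine synthesis, had 50.4, 177 and 76.2 normalized counts in eYFP+ and 433, 763 and 627 in eYFP- libraries (DESeq2 adjusted p = 6.88e-05, edgeR adjusted p = 0.0526). Mthfd2, a mitochondrial folate enzyme, had 196, 388 and 275 against 1342, 737 and 925 (DESeq2 adjusted p = 4.24e-05, edgeR adjusted p = 0.0345). The glutamine and serine carrier Slc1a5, Phgdh and Mthfd1l were the others, and Mthfd1l was called in 0 of the 6 fits that left out a macrophage library. The sums were 119 to 124 TPM in eYFP+, 245 to 276 TPM in eYFP- and 168 to 322 TPM in monocyte libraries.

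The Gimap genes, GTPases known mainly from lymphocytes, were also assembled after their values were seen. All 8 had a negative log2 fold change with a median of -1.65, and Gimap1 and Gimap9 were called, the latter not without eYFP- replicate 3. Gimap1 had 87.5, 67.7 and 139 normalized counts against 476, 564 and 551 (DESeq2 adjusted p = 7.85e-05, edgeR adjusted p = 0.289). The family summed to 19.4 to 36.8 TPM in eYFP+, 46.9 to 95.6 TPM in eYFP- and 2.19 to 20.6 TPM in monocyte libraries. As members were chosen for their direction, these counts are a description.

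The single gene that edgeR called higher has no symbol in the table used here (ENSMUSG00000121137). It had 688, 315 and 318 normalized counts in eYFP+ libraries and 31.9, 21.6 and 25.1 in eYFP- libraries (log2 fold change 4.07 ± 0.53, DESeq2 adjusted p = 2.24e-11, edgeR adjusted p = 0.0330).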
